A study of Drosophila melanogaster with 4 samples.

Results

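The genes described here encode the proteins of the cytosolic ribosome, apart from 10 genes of a few well-known paralog pairs. They were chosen by name, as every gene whose current symbol begins with RpL or RpS followed by a digit or by P, leaving out *RpS19a*, *RpS19b*, *RpS5a*, *RpS5b*, *RpL22*, *RpL22-like*, *RpS10a*, *RpS10b*, *RpS28a* and *RpS28b*. Of 92 genes with such symbols in the annotation, 82 met this rule and 78 of those were among the 17023 genes of the count tables. The identifiers of *RpL19*, *RpL27A*, *RpL31* and *RpS12* did not match and these genes were not analysed here. The 78 genes comprise 49 of the large subunit and 29 of the small subunit.

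Expression was measured by mRNA-seq in whole ovaries of *Drosophila melanogaster*, in 2 libraries of *UAS-Dicer2;NosGAL4* > *bam* RNAi; *aramis* RNAi and 2 libraries of *UAS-Dicer2;NosGAL4* > *bam* RNAi. Flies of both genotypes were fed on yeast and dissected 1 to 3 days after eclosion. Both genotypes therefore carry the Dicer2 transgene, the *nanos* driver and the *bam* hairpin, and they differ by the hairpin against *aramis*. The driver is active in the germline, so that somatic cells of the ovary are present but are not targeted, and knockdown of *bam*, which is required for differentiation of the stem cell daughter, leaves undifferentiated germ cells to accumulate. *aramis*, listed under the symbol *ais*, encodes a DEAD-box RNA helicase. The labels do not say whether replicates came from separate crosses or flies, so the p-values below measure the spread between these libraries, which may be technical.

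A ribosome carries nearly all of its proteins in one copy each, so a cell must supply them in matched amounts, and in flies a lowered dose of many of these genes gives the Minute phenotype of slow growth and thin bristles. Their mRNAs are among the most abundant in a cell. Most of these proteins are encoded by one gene in *Drosophila*, some by a pair of near-identical copies, and a few symbols ending in -like belong to diverged relatives. The yeast counterparts of RpL24-like, RpLP0-like and RpL7-like are assembly factors of the large subunit that leave before the ribosome is finished.

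The libraries held 11882367 and 12434452 counted reads in >*bam* RNAi; *aramis* RNAi and 12074934 and 13348602 in >*bam* RNAi, so that 3 counts equal between 0.225 and 0.252 CPM, the read count scaled to the library total. *ais* was lower with *aramis* RNAi, at 14.8 and 14.8 TPM (counts divided by exon length and scaled to the same sum in each library) against 42.6 and 41.1 in >*bam* RNAi (log2 fold change -1.37, SE 0.113, adjusted p = 3.3e-04). *bam*, targeted in both genotypes, had 1.73 and 1.70 TPM against 3.57 and 2.20 TPM and did not pass the test (-0.61, adjusted p = 0.262). Many markers of the ovary's cell types also differed between the genotypes. For comparison, 25.4% of all 9115 genes tested were higher with *aramis* RNAi and 25.0% were lower, at an adjusted p under 0.05. Of 13 germline markers, 12 were lower and 1 (*tud*) was higher, with a summed level of 730 and 604 TPM against 1438 and 1425 TPM. Their median log2 fold change was -1.42, beside -1.37 for *ais*, and the part of this shift in the *ais* value was not tested. All 6 muscle sheath markers were higher (27829 and 36148 against 19999 and 16550 TPM in sum), as were all 4 hemocyte markers (802 and 711 against 306 and 243 TPM), 2 of 4 fat body markers (425 and 468 against 114 and 109 TPM) and 7 of 14 somatic ovary markers, of which 2 were lower (1351 and 1181 against 1063 and 948 TPM). Egg chamber markers were lower for 8 of 9 genes and uneven between replicates (6031 and 2116 against 19380 and 66224 TPM). No defining marker on these lists was at 0 counts in a library. In whole ovaries, fewer cells of a type and less RNA per cell cannot be told apart, and the part of these shifts in the results below was not tested.

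Of the 78 genes, 75 had enough reads to be tested, and 69 of them did not pass the test. With *aramis* RNAi 2 were higher and 4 were lower at an adjusted p under 0.05, that is 2.67% and 5.33% of those tested, whereas 25.4% of all 9115 genes tested were higher and 25.0% were lower. The median log2 fold change (>*bam* RNAi; *aramis* RNAi over >*bam* RNAi) was -0.03 over the 75 genes and -0.02 over all genes. The median size of the change regardless of sign was 0.056 for these genes and 0.451 for all genes. The SD of the log2 fold change was 0.216 over the 75 genes and 0.904 over all genes.

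**Figure D1:**
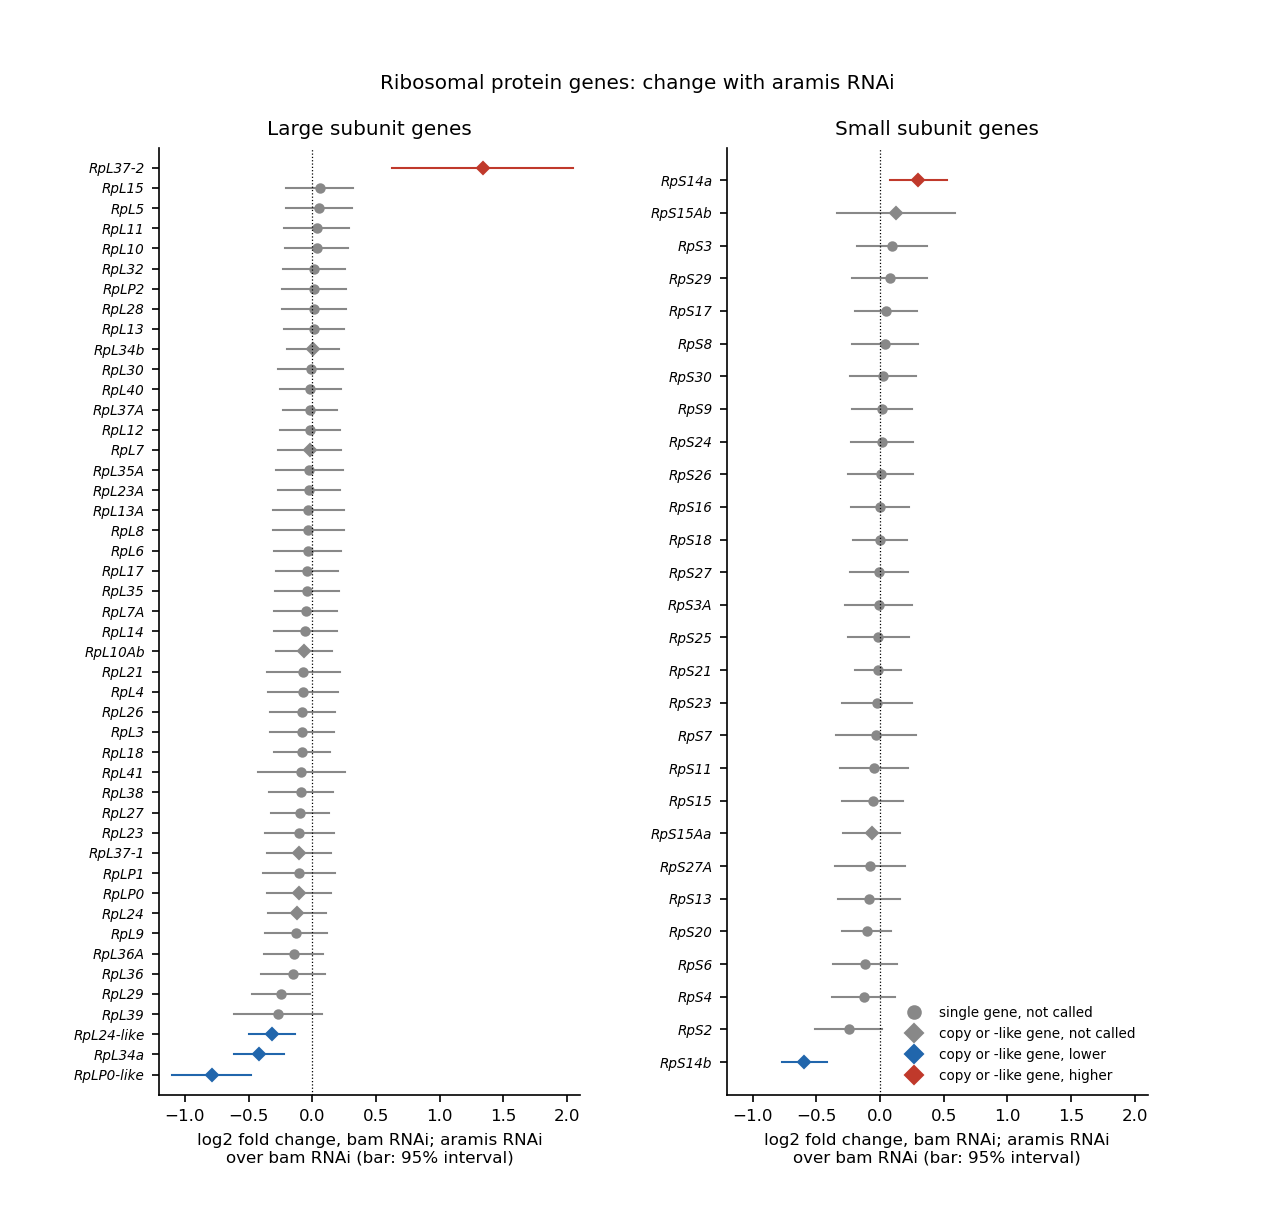
Log2 fold change of the tested ribosomal protein genes, 1 gene of the large subunit left out (x axis, >*bam* RNAi; *aramis* RNAi over >*bam* RNAi) with its 95% interval as a bar, for the large subunit on the left and the small subunit on the right. Circles are single genes, diamonds are genes with another copy or a -like relative, blue marks the 4 genes called lower and red the 2 called higher. The single genes all lie between -0.27 and 0.10, and the coloured points are diamonds.

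With scaling by trimmed means of M-values (TMM), which sets the bulk of genes equal, all 6 genes that passed the test belong to the 17 copies and -like genes of the set, of which 14 were tested. Of these 14, 14.3% were higher and 28.6% were lower, against 25.4% and 25.0% of all genes tested. The 17 form 8 pairs within the set, and *RpS28-like* has no partner there. The other 61 genes, each the only gene for its protein in this set, gave no call. By edgeR's quasi-likelihood test 1 of these 61 had an unadjusted p under 0.05 and the lowest adjusted p was 0.0710, and DESeq2 called 0 of them. This rests on the scaling, as the scalings given below show. With library totals 17 single genes were lower, beside 3346 of all 9115 genes tested. With somatic markers set equal 3 were lower, beside 2969 of all genes. With germline markers set equal all 61 were higher, beside 7844 of all genes. With TMM the log2 fold changes of the single genes ranged from -0.27 to 0.10, with a median of -0.03. Their SD was 0.073, which is below the median SE of a single gene (0.104). The 95% interval of a single gene's log2 fold change reached a median of 0.25 and at most 0.34 to either side. Changes below about this size could not be told from 0 with these libraries. Because calls used the adjusted p, somewhat larger changes could also stay uncalled.

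Among the single genes of the large subunit the lowest value belonged to *RpL39*, a very small protein that lines the tunnel through which the new peptide leaves. It had 1127 and 1122 counts in >*bam* RNAi; *aramis* RNAi against 1303 and 1965 in >*bam* RNAi (log2 fold change -0.27, SE 0.144, adjusted p = 0.160). The >*bam* RNAi replicates of this gene thus differed more from each other than the genotypes did at their nearest. *RpL29*, another large subunit protein, had 2692 and 2909 counts against 3511 and 4469 (-0.25, SE 0.096, adjusted p = 0.0710). *RpS2*, which lies near the mRNA entry of the small subunit, had 10401 and 11588 counts against 15405 and 15765 (-0.25, SE 0.109, adjusted p = 0.101). None of the 3 passed the test with TMM, but all 3 were called lower with somatic markers set equal (-0.54 to -0.60, adjusted p between 0.00994 and 0.0474) and with library totals (-0.44 to -0.46, adjusted p between 0.00521 and 0.0248), and higher with germline markers set equal (1.03 to 1.05). Without >*bam* RNAi replicate 2 the value of *RpL39* was -0.03 and without replicate 1 it was -0.48. The highest value of a single gene was that of *RpS3*, also at the mRNA entry, with 0.10 (SE 0.116, adjusted p = 0.522).

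The stalk of the large subunit recruits the translation factors and consists of RpLP0 with pairs of RpLP1 and RpLP2. *RpLP0* had 3265 and 3031 TPM with *aramis* RNAi against 3831 and 3550 TPM (log2 fold change -0.11, adjusted p = 0.432). *RpLP1* had 2954 and 2652 against 3075 and 3472 TPM (-0.11, adjusted p = 0.486), and *RpLP2* had 3523 and 3624 against 4032 and 3695 TPM (0.01, adjusted p = 0.924). The stalk genes stood at like levels in every library. *RpL40* and *RpS27A* encode a ribosomal protein fused to ubiquitin, and neither passed the test (-0.01 with adjusted p = 0.916 and -0.08 with adjusted p = 0.613). Exons of *RpS27A* overlap those of *Ip259* on the same strand, and reads in the overlap may not be assigned with certainty.

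Both subunits held called genes. Of the 47 large subunit genes tested 1 was higher and 3 were lower, and of the 28 small subunit genes 1 was higher and 1 was lower. The median log2 fold change was -0.05 for the large and -0.01 for the small subunit, a difference of -0.04, and -0.04 and -0.01 when only single genes were taken. The difference was -0.063 without *aramis* RNAi replicate 1 and -0.015 without *aramis* RNAi replicate 2. Summed TPM of the large subunit was 105735 and 107128 with *aramis* RNAi against 123641 and 118237 in >*bam* RNAi, and that of the small subunit was 61485 and 62843 against 70563 and 67600. The large subunit sum was thus 1.72 and 1.70 times the small subunit sum with *aramis* RNAi, and 1.75 and 1.75 times in >*bam* RNAi. These sums cover 49 and 29 genes of this set and are not totals of whole subunits. Mean TPM per single gene with *aramis* RNAi was 2518 and 2568 in the large and 2404 and 2461 in the small subunit. In >*bam* RNAi it was 2943 and 2816 in the large and 2755 and 2642 in the small subunit. These are descriptive values, since with 2 libraries per genotype a two-sided exact permutation test cannot give a p below 0.333.

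As a share of all counts, the 78 genes took 6.13% and 6.40% in >*bam* RNAi; *aramis* RNAi and 7.40% and 7.37% in >*bam* RNAi. Library totals are sensitive to a few very abundant genes. Of the abundant markers given above, those of the muscle sheath were higher with *aramis* RNAi and most of those of the egg chamber were lower. Their part in this share was not tested. After TMM scaling, which gave factors of 0.956 and 0.914 against 1.07 and 1.07, the sum over the genes was 64217 and 70034 normalised CPM against 69108 and 69120. On that scale the *aramis* RNAi replicates lay on either side of the >*bam* RNAi replicates. If library totals alone were used (an alternative chosen after the data were seen), 25 genes were lower and 1 was higher. Of all 9115 genes tested, 3346 were then lower and 1684 were higher. The median was -0.23 over the ribosomal protein genes and -0.21 over all genes. If instead the germline markers were set equal, all 75 were higher, with a median of 1.26. Of all genes 7844 were then higher and 173 were lower, with a median of 1.28. If the somatic markers were set equal, 7 were lower and 0 were higher, against 2969 and 1080 of all genes. The medians were then -0.33 and -0.32. Whether the ribosomal protein genes as a group counted as lower, level or higher therefore depended on the scaling. Their median minus that of all genes was -0.013 with TMM, -0.011 with germline markers set equal, -0.003 with somatic markers set equal and -0.016 with library totals. A scaling shifts all genes by about the same amount, so the likeness of these values was fixed in advance. The difference rested on single libraries, being 0.055 without *aramis* RNAi replicate 1, where the genes had a median of 0.04. Without *aramis* RNAi replicate 2 it was -0.077, and the genes had a median of -0.10.

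Within each genotype the order of the genes was nearly the same. Mean TPM in the genotypes had a Spearman correlation of 0.994 over the 75 genes, which is across genes of the same libraries and is no replicate count. *RpL41*, which encodes a very short basic peptide, was the highest with 6417 and 7731 TPM in >*bam* RNAi; *aramis* RNAi against 8322 and 8112 TPM in >*bam* RNAi. It was followed by *RpL23* (5611 and 5907 against 6938 and 6559 TPM), *RpS27A* (5119 and 4978 against 5560 and 6021 TPM) and *RpL21* (4338 and 4588 against 5007 and 5208 TPM). The log2 fold changes of these 4 genes on the TMM scale lay between -0.10 and -0.07 and none passed the test. TPM holds no TMM factor, unlike the tested scale, so TPM values and log2 fold changes are on different scales.

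**Figure D2:**
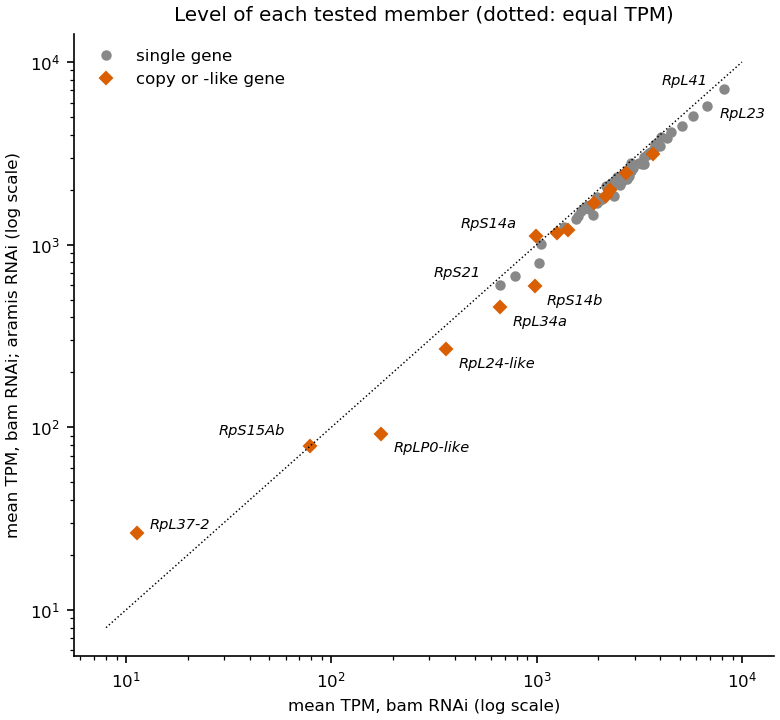
Mean TPM of each tested gene in >*bam* RNAi; *aramis* RNAi (y axis) against that in >*bam* RNAi (x axis), both on log scales, with the dotted line at equal TPM. Grey circles are single genes, which all lie along and below the line, between 601 and 8217 TPM. Orange diamonds are genes with another copy or a -like relative, which include the lowest levels and the points farthest from the line.

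At the low end of the single genes were *RpS21* (601 and 601 against 682 and 645 TPM), *RpL38* (mean 674 against 782 TPM) and *RpL39* (mean 790 against 1032 TPM), and the other 58 of the 61 single genes had a mean over the 4 libraries above 1000 TPM. Every single gene was above 98.6% of the 16647 annotated genes in mean TPM. The spread between members, as the SD of log2 TPM, was 1.30 and 1.31 with *aramis* RNAi and 1.37 and 1.35 in >*bam* RNAi over the 75 genes. The lowest of these genes, *RpL37-2*, had 26.9 and 25.8 against 11.3 and 11.3 TPM. A gene so far below the others weighs heavily on an SD, and the SD without this gene was not computed. Over the 61 single genes the SD was 0.666 and 0.685 against 0.684 and 0.664, and the genotypes overlapped. By subunit, the single genes had an SD of 0.707 and 0.731 against 0.739 and 0.697 in the large subunit and of 0.612 and 0.622 against 0.605 and 0.623 in the small subunit, and the genotypes overlapped in both.

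The evenness of the change can be read from the ratio of one library to another, gene by gene. Over the single genes, the SD of the log2 ratio of normalised CPM was 0.0853, 0.102, 0.0808 and 0.124 for the 4 pairs of libraries from different genotypes. It was 0.0730 between the *aramis* RNAi replicates and 0.116 between the >*bam* RNAi replicates. The single genes were therefore no more uneven between genotypes than the >*bam* RNAi replicates were between themselves in 3 of 4 pairs. In all 4 pairs they were more uneven than between the *aramis* RNAi replicates. Over all 9115 genes, in contrast, the SD was 0.751 to 0.840 between genotypes and 0.360 within each. Addition of the copies and -like genes raised the SD of the members to between 0.203 and 0.219 between genotypes, against 0.0771 and 0.126 within. As a group the single genes were lower in *aramis* RNAi replicate 1 than in replicate 2, with a median log2 ratio of -0.14, which exceeds their median change between genotypes.

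**Figure D3:**
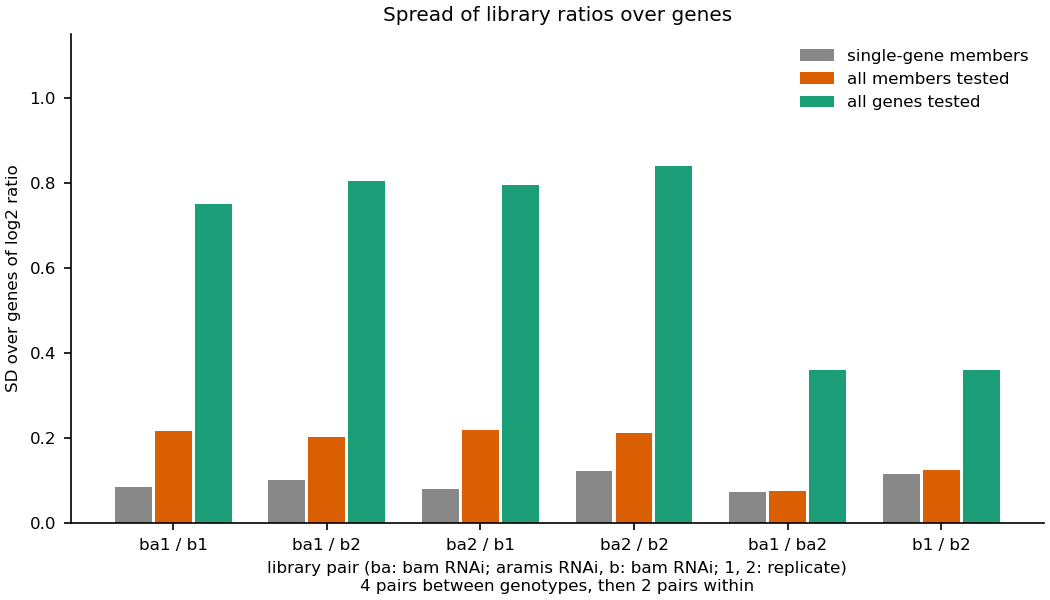
SD over genes of the log2 ratio of normalised CPM (y axis, starting at 0) for each pair of libraries, the 4 pairs between genotypes on the left and the 2 pairs of replicates on the right. Grey bars are the 61 single genes, orange bars all 75 ribosomal protein genes tested and green bars all 9115 genes tested. Grey bars stand at 0.0808 to 0.124 between genotypes and at 0.0730 and 0.116 within. Green bars reach at least 0.751 between genotypes and 0.360 within.

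With TMM the calls fell on copies and -like genes, at the shares given above beside those of all genes. *RpS14a* and *RpS14b* lie side by side on the X chromosome in the same orientation, at X:7933742-7934677 and X:7934898-7935792 (dm6), with 220 bases between them, and both encode the RpS14 protein of the small subunit. *RpS14b* had 615 and 574 TPM in >*bam* RNAi; *aramis* RNAi against 1039 and 916 TPM in >*bam* RNAi (log2 fold change -0.59, SE 0.074, adjusted p = 0.00107). *RpS14a* had 1080 and 1153 TPM against 1014 and 962 TPM (0.30, SE 0.094, adjusted p = 0.0340). For both genes the genotypes did not overlap, and with TMM the copies moved in opposite directions. In normalised CPM both *aramis* RNAi libraries lay below both >*bam* RNAi libraries for 22 of the 75 genes tested, and above for 2. Of the 22, 14 were single genes without a call, so lack of overlap does not mark the called genes. The share over all genes was not computed. The rise of *RpS14a* was not found under every scaling, with a log2 fold change of 0.0007 (adjusted p = 0.998) with somatic markers set equal and of 0.11 (adjusted p = 0.322) with library totals, and *RpS14b* was at 0.70 with germline markers set equal. In >*bam* RNAi the copies had nearly equal TPM, with *RpS14a* at 0.977 and 1.05 times *RpS14b*, whereas with *aramis* RNAi it was at 1.76 and 2.01 times. *RpS14b* accordingly took 27.9% and 25.3% of the pair's reads against 41.1% and 39.3%. The summed counts of the copies were 6249 and 6968 against 7613 and 8131, and the sum did not pass the test (log2 fold change 0.01, SE 0.095, 95% interval -0.22 to 0.23, adjusted p = 0.964, an alternative added after the data were seen). How reads that fit both copies were assigned is not given in the sources used here, so the split between the copies is uncertain.

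*RpL34a* on 3R had 455 and 456 TPM with *aramis* RNAi against 655 and 672 TPM (log2 fold change -0.42, SE 0.081, adjusted p = 0.00573), without overlap. Its copy *RpL34b*, elsewhere on 3R and the more abundant of the pair, had 1161 and 1158 against 1302 and 1220 TPM and did not pass the test (0.005, SE 0.084, adjusted p = 0.966). *RpL34a* thus took 20.8% and 20.9% of the pair's reads with *aramis* RNAi against 25.2% and 27.0% in >*bam* RNAi. The summed counts of the pair did not pass the test (-0.09, SE 0.090, 95% interval -0.31 to 0.12, adjusted p = 0.418).

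*RpL37-2* on 2R has a single exon and was the lowest tested gene of the set, with 54 and 56 counts in >*bam* RNAi; *aramis* RNAi against 24 and 28 counts in >*bam* RNAi. These counts equal 26.9 and 25.8 TPM against 11.3 and 11.3 TPM (log2 fold change 1.34, SE 0.296, adjusted p = 0.00979). The genotypes did not overlap, but the 95% interval ran from 0.63 to 2.05, and the call was lost with somatic markers set equal (1.03, adjusted p = 0.0514). The more abundant copy *RpL37-1* on the X chromosome had 1838 and 1874 against 2219 and 2132 TPM and did not pass the test (-0.10, adjusted p = 0.438). *RpL37-2* made up 0.475% and 0.446% of the pair's reads against 0.165% and 0.173%, so that its value is open to a small share of misassigned *RpL37-1* reads, which was not tested. The pair's sum followed *RpL37-1* (-0.10, SE 0.104, adjusted p = 0.457).

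The gene pair for RpS15A, a protein of the small subunit body, had a similar make-up without a call. *RpS15Ab*, which has a single exon, had 74.1 and 84.3 TPM against 67.1 and 90.7 TPM (log2 fold change 0.12, SE 0.194, adjusted p = 0.625), and the genotypes overlapped. It stood at 3.67% and 4.27% of the level of *RpS15Aa* with *aramis* RNAi against 2.90% and 4.06%. *RpS15Aa* had 2019 and 1972 against 2317 and 2234 TPM (-0.07, adjusted p = 0.591). *RpL10Ab*, for the protein of the L1 stalk, had 1776 and 1589 against 1901 and 1924 TPM (-0.06, adjusted p = 0.593), while its copy *RpL10Aa* had 0 counts in all 4 libraries, which allows up to 0.252 CPM in the shallowest library for counting error alone.

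**Figure D4:**
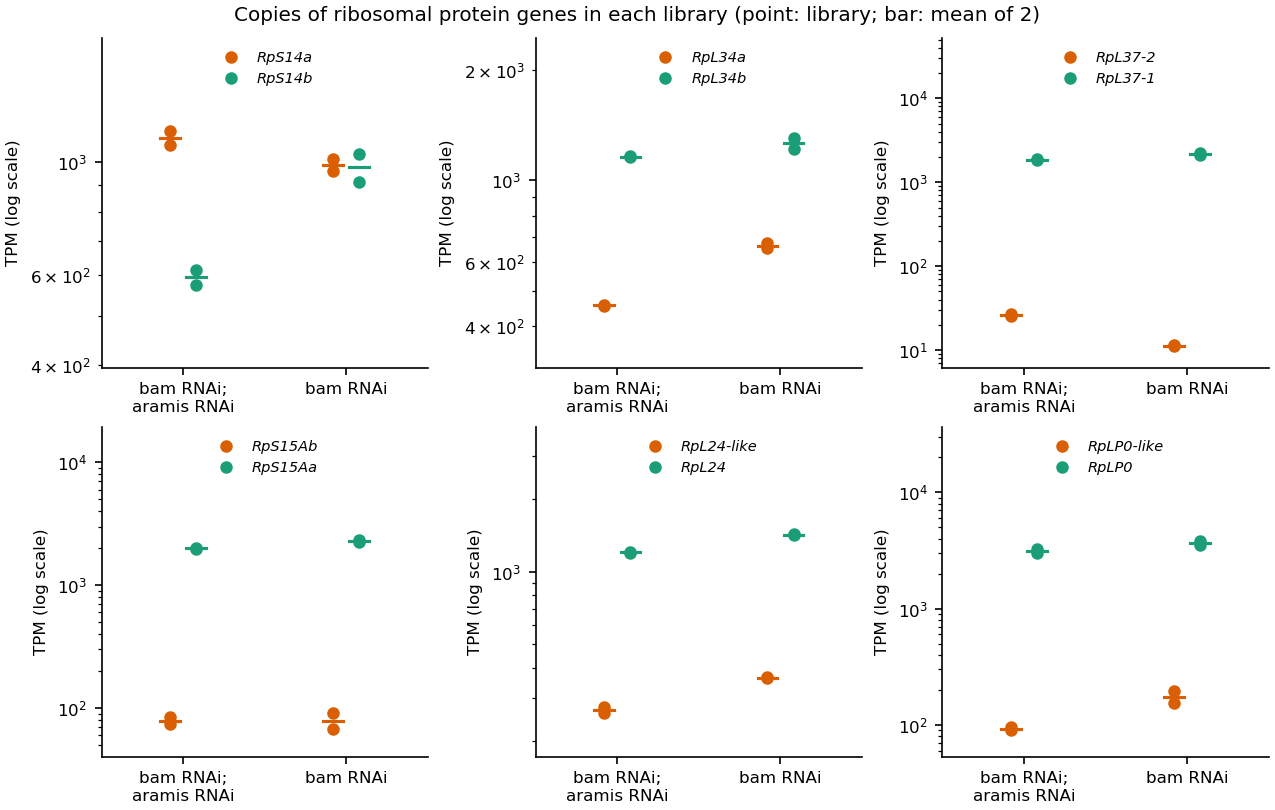
TPM on a log scale (y axis) of 6 pairs of genes in each library, with >*bam* RNAi; *aramis* RNAi on the left and >*bam* RNAi on the right of each panel. Points are libraries and bars are means of 2. *RpS14a* and *RpS14b* lie together in >*bam* RNAi and apart with *aramis* RNAi, *RpL34a*, *RpL24-like* and *RpLP0-like* are lower with *aramis* RNAi, *RpL37-2* is higher and *RpS15Ab* overlaps.

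Both expressed -like genes were lower with *aramis* RNAi. *RpLP0-like* on 2R, whose yeast counterpart Mrt4 holds the place of the stalk protein on the immature subunit, had 404 and 464 counts against 936 and 853, or 89.6 and 95.1 TPM against 196 and 154 TPM (log2 fold change -0.79, SE 0.130, adjusted p = 0.00303). *RpL24-like* on 3R, the relative of the yeast assembly factor Rlp24, had 1013 and 1040 counts against 1414 and 1651, or 276 and 261 TPM against 363 and 365 TPM (-0.32, SE 0.075, adjusted p = 0.0127). Neither overlapped between genotypes, and nor did *RpL24* and *RpLP0*. The structural proteins did not pass the test, *RpL24* with -0.12 (SE 0.095, adjusted p = 0.333) and *RpLP0* as given above. *RpLP0-like* stood at 2.75% and 3.14% of the TPM of *RpLP0* with *aramis* RNAi against 5.11% and 4.33%, and *RpL24-like* at 22.9% and 21.8% of *RpL24* against 25.7% and 25.5%. *RpL7-like* had 0 and 2 counts against 0 and 0, and *RpS28-like* had 0 and 0 against 0 and 1, both too few to test. Of the 1793 exon bases of *RpL7-like*, 1771 overlap *CG34164* on the same strand. *RpL7* itself had a log2 fold change of -0.02 (adjusted p = 0.881).

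The calls on the copies rest on few libraries. When a library was left out, the spread of the remaining lone library was taken to be that of the other genotype. Without >*bam* RNAi replicate 1 the calls fell to 1 lower and 0 higher, and only *RpS14b* stayed called. The values of the others there were -0.65 for *RpLP0-like*, -0.48 for *RpL34a*, -0.36 for *RpL24-like*, 0.30 for *RpS14a* and 1.30 for *RpL37-2*, with adjusted p between 0.0613 and 0.197. Without >*bam* RNAi replicate 2 they fell to 2 lower and 0 higher, and *RpS14b* and *RpLP0-like* stayed called. The others were at -0.36 for *RpL34a*, -0.28 for *RpL24-like*, 0.30 for *RpS14a* and 1.38 for *RpL37-2*, with adjusted p between 0.072 and 0.215. Over all genes the calls fell in the same settings to 830 higher and 631 lower and to 685 higher and 558 lower, from 2312 and 2278. Leaving out *aramis* RNAi replicate 1 cost the call of *RpL24-like* (-0.29, adjusted p = 0.0655), and leaving out replicate 2 cost that of *RpS14a* (0.20, adjusted p = 0.0902). With the germline markers set equal, the 4 genes given as lower had positive log2 fold changes of 0.51 to 0.98, but all genes then had a median of 1.28. Taken relative to the median of all genes, *RpS14b* stood at -0.57, *RpL34a* at -0.40, *RpL24-like* at -0.30 and *RpLP0-like* at -0.77 in that setting, against -0.57, -0.40, -0.30 and -0.77 in the same order with TMM. *RpS14a* stood at 0.33 and *RpL37-2* at 1.35 relative to all genes, against 0.32 and 1.36 with TMM. A change of scaling shifts all genes by about the same amount. The likeness of these relative values was thus fixed in advance and cannot show which scaling is right.

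The genes are spread over the genome, with 18 on 2L, 18 on 2R, 13 on 3L, 19 on 3R, 9 on the X chromosome and 1 (*RpS3A*) on chromosome 4. Their exons cover 288 to 3835 bases with a median of 888. Over the single genes the log2 fold change had a Spearman correlation of 0.19 with exon length and of -0.08 with mean TPM, given as a description across genes of the same libraries. For 9 genes exons overlap another gene on the same strand, mostly small nucleolar RNA genes that lie within them, and for 22 they overlap a gene on the opposite strand.

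Other genes tied to ribosomal protein supply, listed with earlier results of these libraries known, were mixed. *sta*, the small subunit protein known elsewhere as RpSA, had 3777 and 3672 TPM against 4736 and 4001 TPM (log2 fold change -0.10), and *Rack1*, a scaffold on the small subunit, had 2787 and 2773 against 3130 and 2953 TPM (-0.005), and neither passed the test. Of 7 regulators, 1 was higher, 2 were lower and 4 were not called. At the same cutoff 25.4% of all genes tested were higher and 25.0% were lower. The calls named here therefore do not set these genes apart. *Thor*, the 4E-BP repressor of cap-dependent translation, had 1501 and 1221 against 693 and 567 TPM (1.23, adjusted p = 3.7e-04). *Dref* and *Myc*, transcription factors that promote growth, were lower (-0.43 and -0.28). *M1BP*, *Trf2*, *larp* and *mTor* were not called. *Xrp1*, which mediates the response to reduced ribosomal protein gene dose, had 327 and 340 against 238 and 203 TPM (0.73, adjusted p = 0.00179), and its partner *Irbp18* was not called (0.40). Among the factors of subunit joining and export, *eIF6* (-0.48) and *Nmd3* (-0.40) were lower, and *Sbds* was not called (0.03).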

How the data were processed

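Ovaries of 4 libraries were analysed, 2 per genotype, with genotype and replicate taken from the labels. Libraries were made with the NEXTflex Rapid Directional kit from polyA RNA fragmented for 13 minutes. The authors deposited raw counts, one whole number for each gene and library. The submitters' processing notes name HISAT2 2.1.0, featureCounts 1.4.6, DESeq2 1.24.0 and dm6. The annotation release, the strand setting and the handling of multiply mapped reads are not given in the sources used here.

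Of 17023 identifiers, 16647 matched Ensembl release 115 (BDGP6, dm6 coordinates). The 376 others carried 6.14% to 6.32% of counts, and were kept in tests and left out of TPM. TPM used the union of exons. Counts were fitted with edgeR 4.0.16 in R 4.3.3 (quasi-likelihood test, TMM, filterByExpr with a minimum count of 10), with Benjamini-Hochberg adjustment over 9115 genes and calls at adjusted p under 0.05. The SE was derived from the F statistic. Ratios of libraries used normalised CPM with 0.5 added. DESeq2 1.42.0 and other scalings, a filter of 1 count, a replicate block and leaving out each library were alternatives. Code was tested on simulated data. The genes and lists were chosen with earlier results of these data known. Genes named in the text were the called genes (at most 8 in each direction), the 5 highest and 5 lowest in TPM, all copies and -like genes, the stalk genes, *RpL41*, the ubiquitin fusions, and genes at 0 counts or differing over 2-fold between replicates. *RpL39*, *RpL38*, *RpS21*, *RpL29*, *RpS2* and *RpS3* were added after their values were seen. 1 gene of the set is counted but not reported by name here. Limits from counts cover counting error only. *vas*, *wupA* and *S6k* did not match. Sequences were not used here.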

Additional observations from a re-analysis of the deposited data

How the results depend on the processing

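The count of 4 genes lower and 2 higher, with the same 6 genes, was found with RLE normalization, TMM factors computed without ribosomal protein genes, no filter on low counts, DESeq2 and the replicate block. The replicate block left 2257 higher and 2173 lower among all genes, and the deviations of same-numbered libraries had a correlation of 0.03, so the numbers were not taken to pair the libraries. With germline markers set equal, 75 genes were higher and 0 lower (median 1.26), and with somatic markers 0 and 7 (-0.33). With library totals, chosen after seeing the data, they were 1 and 25 (-0.23). Among all 9115 genes tested these settings gave 7844 higher and 173 lower, 1080 and 2969, and 1684 and 3346, in the same order. Leaving out one library gave 0 to 2 higher and 1 to 4 lower, and a large minus small subunit difference of -0.063 to -0.015. The SD of log2 values over genes was 1.46 with *aramis* RNAi and 1.51 in >*bam* RNAi with CPM, and 1.31 with *aramis* RNAi with the longest transcript as length.

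Some log2 fold changes changed sign. With germline markers set equal, which moved the median of all genes to 1.28, they were 0.51 for *RpLP0-like*, 0.70 for *RpS14b*, 0.88 for *RpL34a*, 0.98 for *RpL24-like*, 1.18 for *RpL24*, 1.19 for *RpLP0*, *RpLP1* and *RpL37-1*, 1.20 for *RpL23*, 1.21 for *RpL41*, 1.22 for *RpS27A*, 1.23 for *RpL21*, *RpS15Aa* and *RpL10Ab*, 1.27 for *RpL7* and 1.28 for *RpL40*. With somatic markers set equal they were -0.30 for *RpL34b*, -0.29 for *RpLP2* and -0.20 for *RpS15Ab*, and with library totals -0.19, -0.18 and -0.072 for the same genes. A value near 0 changed sign for *RpL40* (0.0056 with RLE, 0.0054 with DESeq2). The summed counts of a pair gave 0.0058 for *RpS14b*, -0.094 for *RpL34b*, -0.10 for *RpL37-2* and -0.061 for *RpS15Ab*. Leaving out one library gave ranges of -0.23 to 0.023 for *RpLP1*, -0.28 to 0.10 for *RpL41*, -0.17 to 0.020 for *RpS27A*, -0.16 to 0.035 for *RpL21*, -0.055 to 0.023 for *RpL7*, -0.079 to 0.067 for *RpL40*, -0.041 to 0.070 for *RpL34b*, -0.056 to 0.10 for *RpLP2* and -0.11 to 0.40 for *RpS15Ab*. The causes were not tested. Genes below about 0.25 CPM, the level of 3 counts, could not be compared.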
